A study of Mus musculus with 9 samples.

Results

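The epidermal growth factor (EGF) receptor family and its ligands were followed as 10 named genes of the 16755 in the deposited expression table. The members were 4 receptors (Egfr, Erbb2, Erbb3 and Erbb4) and 6 ligands (Areg, Btc, Egf, Hbegf, Nrg1 and Tgfa). They were chosen by symbol, and all 10 were in the table.

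Liver RNA of male C57BL/6 mice (C57BL/6J in the study's methods) was sequenced in 3 groups of 3 mice. The gene under study was Scd2, a stearoyl-CoA desaturase that makes monounsaturated fatty acids, of which an exon is flanked by loxP sites in all 9 mice. Scd2f/f;CC mice also carry the Col1a1-Cre transgene, which deletes Scd2 where Col1a1 is expressed, that is in hepatic stellate cells (HSC) and portal fibroblasts. The Scd2f/f and Scd2f/f;CC DEN + WAD groups received the carcinogen diethylnitrosamine (DEN, 10 mg/kg) at 2 weeks of age and then, from 6 weeks, a Western alcohol diet (WAD) for 4 months by the labels and for longer by the study's methods. The third group was Scd2f/f mice without DEN or WAD, whose age the labels do not give. Both Scd2f/f groups lack Cre, so the transgene and the deletion cannot be told apart. DEN, WAD and any difference in age likewise go together in the comparison of treated with untreated Scd2f/f mice. The study describes the sequenced tissue of both DEN + WAD groups as liver next to tumors. It held microscopic tumors but no visible ones. The study also reports diminished tumors in Scd2f/f;CC mice. What tumor cells contribute to the values below was not tested.

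The 4 receptors are tyrosine kinases of the cell surface that pair after binding a ligand and signal through Ras and ERK and through PI3 kinase and Akt. EGFR binds EGF, transforming growth factor alpha, amphiregulin, betacellulin and heparin-binding EGF, and ErbB4 shares the last pair. Neuregulin 1 binds ErbB3 and ErbB4. ErbB2 has no known ligand of its own and serves as a partner, and ErbB3 has a weak kinase and signals through partners. The ligands are made as membrane proteins that metalloproteases such as ADAM17 cut free. In the liver EGFR is prominent on hepatocytes and takes part in regeneration.

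The values were group means of normalized read counts, as the authors deposited them, with 3 significant digits. No value of a single mouse was analysed here, so no difference below carries a test, an error or a check against the spread between mice, and folds are ratios of group means. The total count of each library is unknown. The lowest mean in the table was 0.04 in untreated Scd2f/f, 0.0348 in Scd2f/f DEN + WAD and 0.0349 in Scd2f/f;CC DEN + WAD, and the upper quartile was 15.5, 15.5 and 15.4. The targeted gene Scd2 had means of 2.46 in untreated Scd2f/f, 6.47 in Scd2f/f DEN + WAD and 1.87 in Scd2f/f;CC DEN + WAD, a value that also counts exons outside the deleted part. Albumin (Alb), the defining hepatocyte product, stood at 21300, 20900 and 22700 in the same order.

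Divided by the length in kb of the union of a gene's exons, a scale on which different genes can be set side by side, the family spanned more than 3 orders of magnitude. Egfr was the highest member in every group, at 82.6 per kb in untreated Scd2f/f, 45.8 in Scd2f/f DEN + WAD and 60.2 in Scd2f/f;CC DEN + WAD. Erbb3 was second at 13.7, 15.5 and 17.5 per kb. Among the ligands that are members, Tgfa, which encodes transforming growth factor alpha, was highest at 1.94, 1.94 and 1.57 per kb. Btc, which encodes betacellulin, followed at 0.838, 0.673 and 0.571 per kb. Erbb4 came after Btc at 0.456, 0.302 and 0.536 per kb. The other 5 members, Erbb2, Nrg1, Areg, Hbegf and Egf, lay between 0.0127 and 0.214 per kb. Egf, the gene the family is named after, was last in each group on this scale.

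The order of the first 5 was the same in the 3 groups, while the lower ranks shifted. Nrg1 was sixth in Scd2f/f DEN + WAD, seventh in untreated Scd2f/f and ninth in Scd2f/f;CC DEN + WAD. Areg passed Erbb2 in Scd2f/f DEN + WAD and lay below it in the other groups. Whether neighbours in this order differ beyond the spread between mice was not tested. With the length of the longest annotated transcript in place of the union of exons, the first 4 ranks stayed the same in every group and 9 of the 30 ranks moved. Egf was then eighth in untreated Scd2f/f, at 0.0723 per kb, and last in both DEN + WAD groups.

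**Figure D1:**
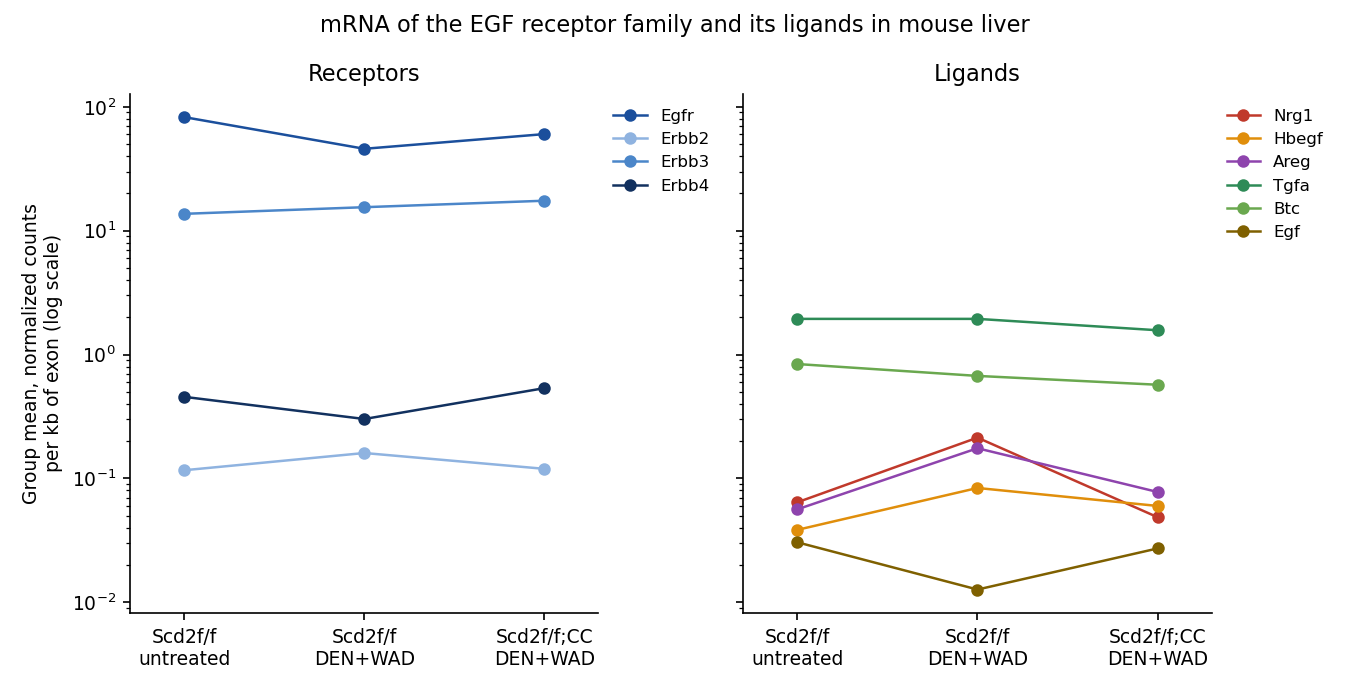
Group means of the 10 members per kb of exon on a log axis, receptors and ligands apart, 1 point for each of the 3 groups and no error bars because only group means were used. Egfr lies highest at 45.8 to 82.6 per kb, and Nrg1, Areg and Hbegf have their highest points in Scd2f/f DEN + WAD.

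Summed per kb, the 4 receptors came to 96.8 in untreated Scd2f/f, 61.8 in Scd2f/f DEN + WAD and 78.3 in Scd2f/f;CC DEN + WAD. Egfr made up 85.3% of that sum in untreated mice, 74.2% in Scd2f/f DEN + WAD and 76.9% in Scd2f/f;CC DEN + WAD. Erbb3 made up 14.1%, 25.1% and 22.3%. Erbb4 gave 0.471%, 0.489% and 0.684%, and Erbb2 0.120%, 0.260% and 0.153%. The receptor sum was thus lowest in Scd2f/f DEN + WAD, where Erbb3 held its highest share.

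The 6 ligands summed to 2.97 per kb in untreated Scd2f/f, 3.10 in Scd2f/f DEN + WAD and 2.36 in Scd2f/f;CC DEN + WAD. Tgfa held 65.4%, 62.6% and 66.7% of the ligand sum and Btc 28.2%, 21.7% and 24.2%. Nrg1 held 2.16%, 6.89% and 2.07%, and Areg, which encodes amphiregulin, 1.90%, 5.66% and 3.30%. Hbegf held 1.30%, 2.70% and 2.55%, and Egf 1.03%, 0.409% and 1.16%. Among these 6, the ligands with the largest folds between groups, described next, were therefore a small part of the sum. Ligands outside the members are left out of it. Nrg4, an ErbB ligand that is not a member, stood at 2.90, 0.438 and 0.515 per kb in the same order of groups. In untreated mice that was above Tgfa. These are shares of RNA in whole tissue and say nothing of protein or of which cells hold it.

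**Figure D2:**
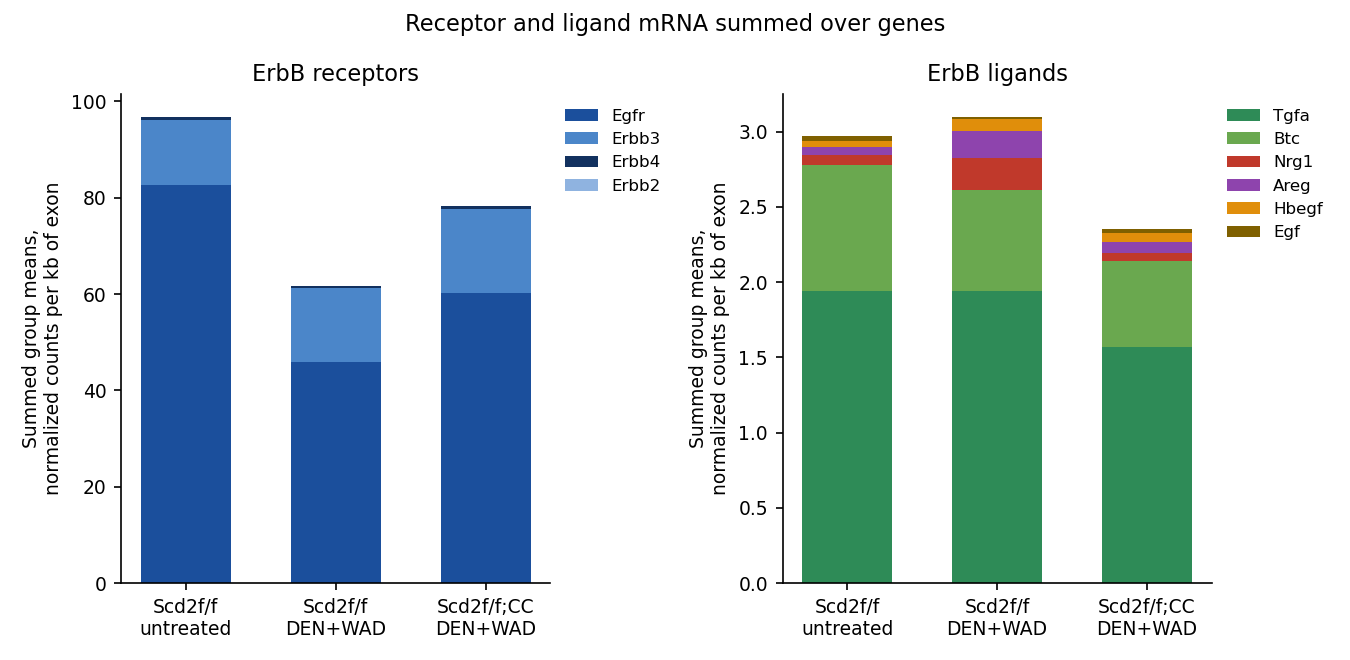
Group means per kb of exon stacked by gene, receptors and ligands apart, 1 bar for each group of mice. The height of a bar is the per kb sum. Egfr fills 74.2% to 85.3% of the receptor bars, with Erbb2 too thin to see, and Tgfa and Btc fill most of each ligand bar.

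To ask how treatment differed from none in mice with intact Scd2, Scd2f/f DEN + WAD was set against untreated Scd2f/f. A fold of group means of at least 2 was counted as past the threshold. The ligands Nrg1, Areg and Hbegf were higher by at least that much in Scd2f/f DEN + WAD, 3 of 10 members, against 9.37% of all 16755 genes. Egf was lower by at least that much, 1 of 10 members, against 4.69% of all genes. No receptor was past 2-fold in either direction. Of these 4 ligands, 3 had means under 1, where folds of this size were commoner. Among all genes with a mean under 1 over both groups, 16.5% were at least 2-fold higher and 8.65% at least 2-fold lower, and of the 4 members in that class Areg and Hbegf were higher and Egf lower. Nrg1 fell in the class with means of 1 to 10, in which 9.84% of genes were at least 2-fold higher, but it entered that class only through its mean in Scd2f/f DEN + WAD, since its untreated mean was under 1, so nothing is read from that lower share. The median log2 ratio was 0.09 over the members and 0.04 over all genes, with 5 members higher, 4 lower and 1 equal.

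To ask how the loss of Scd2 in Col1a1-expressing cells differed from its presence, Scd2f/f;CC DEN + WAD was set against Scd2f/f DEN + WAD. Nrg1 and Areg were at least 2-fold lower in Scd2f/f;CC, 2 of 10 members, against 4.07% of all genes. Egf was at least 2-fold higher, 1 of 10 members, against 1.82% of all genes. Among genes with a mean under 1, where Areg and Egf lay, 9.92% were at least 2-fold lower and 4.67% at least 2-fold higher. Among genes with a mean of 1 to 10, 2.51% were at least 2-fold lower. Nrg1 lay in that class only through its mean in Scd2f/f DEN + WAD, with a mean under 1 in Scd2f/f;CC, so nothing is read from that share either. The median log2 ratio was -0.27 over the members and 0 over all genes, with 4 members higher and 6 lower. This comparison and the one with untreated mice share the Scd2f/f DEN + WAD means, so their folds are not independent of each other.

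The comparison of Scd2f/f;CC DEN + WAD with untreated Scd2f/f does not use those means. None of the 10 members was past 2-fold in it by the ratio of group means, against 6.41% of all genes higher and 4.64% lower, and no test was run here. The largest ratio among the members was that of Hbegf, 1.56-fold higher in Scd2f/f;CC DEN + WAD. The members' median log2 ratio was -0.06 against 0.05 over all genes, with 5 members higher and 5 lower.

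**Figure D3:**
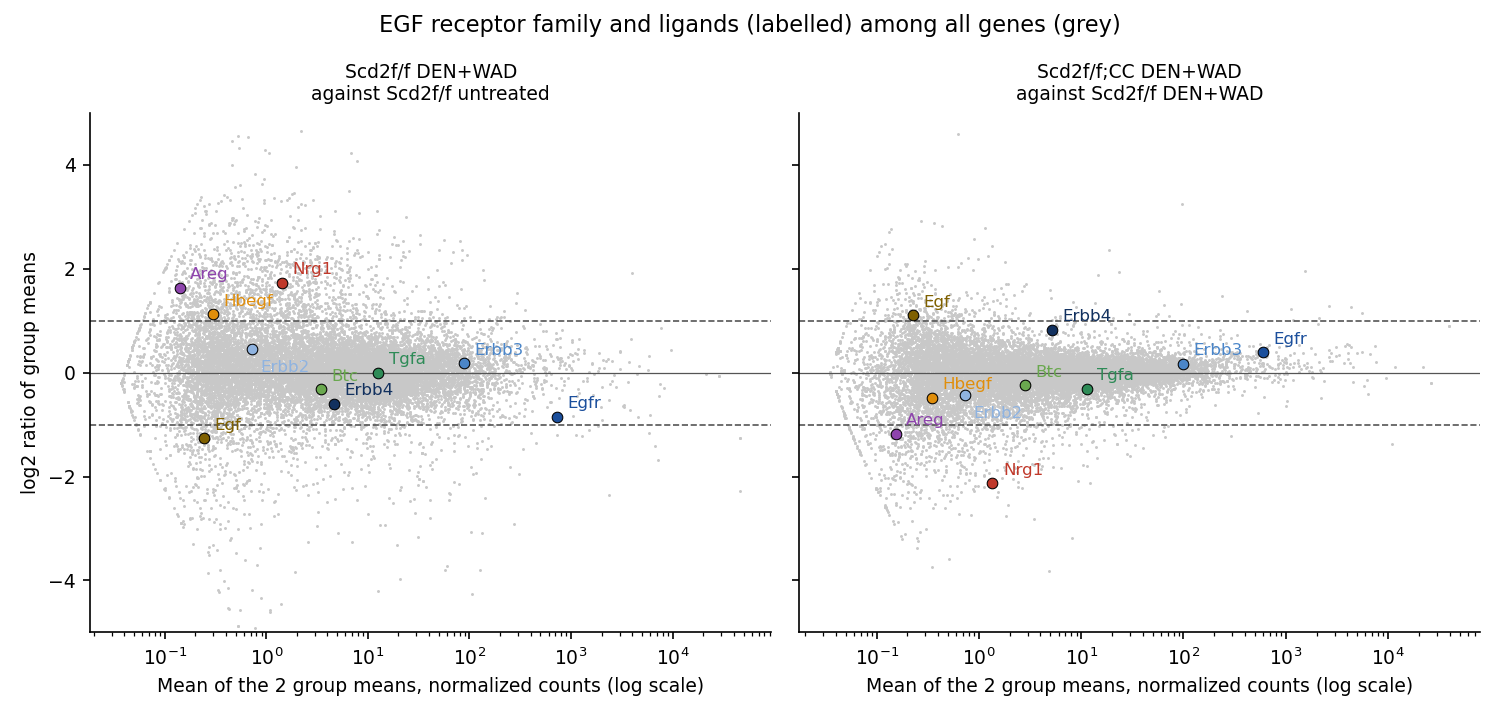
Log2 ratio of group means against mean level (log axis) for all 16755 genes in grey, with the 10 members labelled, for Scd2f/f DEN + WAD over untreated Scd2f/f and for Scd2f/f;CC over Scd2f/f in DEN + WAD mice. The grey cloud widens below a mean of 1, where Areg, Hbegf, Egf and Erbb2 lie, and Nrg1 is the member farthest from 0 in both panels, at 1.73 and -2.13; 27 genes in the first panel and 4 in the second lie beyond the axis.

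Egfr lies at chr11:16752203-16918158 on the plus strand of GRCm38, with 28 exons in its longest transcript. Its mean was 935 in untreated Scd2f/f, 519 in Scd2f/f DEN + WAD and 682 in Scd2f/f;CC DEN + WAD, above the means of 99.5%, 99.2% and 99.3% of genes. The lowest level was thus in treated mice with intact Scd2, and the Scd2f/f;CC level lay between the others. It was 1.80-fold lower in Scd2f/f DEN + WAD than in untreated mice (log2 -0.85), and 6.41% of genes had a ratio at least as low. In Scd2f/f;CC DEN + WAD it was 1.31-fold higher than in Scd2f/f DEN + WAD (log2 0.39), and 10.4% of genes had a ratio at least as high. Egfros, a transcript on the opposite strand that overlaps Egfr, had means of 14.8, 6.65 and 4.27 in the same order, small beside those of Egfr. The library kit does not mark strand, so reads from both genes cannot be told apart where they overlap.

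Because the tissue was taken whole, fewer cells of a type and less RNA per cell cannot be told apart. The 8 hepatocyte markers summed to 39388 in untreated Scd2f/f, 39450 in Scd2f/f DEN + WAD and 44007 in Scd2f/f;CC DEN + WAD, sums carried mainly by Alb and Apob. Between treated and untreated Scd2f/f their median log2 ratio was -0.16, with Apob, the main apolipoprotein of very low density lipoprotein, higher (log2 0.44), Alb near equal (-0.03) and Apoa1 lower (-0.71). Tat, a tyrosine aminotransferase, was the 1 of 8 past 2-fold, at a log2 ratio of -1.46, beside 4.69% of all genes lower by at least 2-fold. The part of hepatocyte content in the Egfr difference was not tested.

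Erbb3, at chr10:128567523-128589652 on the minus strand, had means of 82.3 in untreated Scd2f/f, 93.1 in Scd2f/f DEN + WAD and 105 in Scd2f/f;CC DEN + WAD. Its ratios were small, log2 0.18 between treated and untreated Scd2f/f and 0.17 between the DEN + WAD groups. Erbb4, at chr1:68032186-69108059 on the minus strand, had means of 5.63, 3.73 and 6.62. It was 1.51-fold lower in Scd2f/f DEN + WAD than in untreated mice (log2 -0.59) and 1.77-fold higher in Scd2f/f;CC than in Scd2f/f (log2 0.83), a ratio that 2.83% of genes reached. Erbb4 and Egfr thus both had their lowest mean in Scd2f/f DEN + WAD but differed in which group stood highest, while Erbb3 had its lowest mean in untreated mice. Erbb2, at chr11:98412470-98437716 on the plus strand, was low at 0.607, 0.836 and 0.623. It overlaps Mien1 on the opposite strand, whose means were 20.8, 15.2 and 13.2, far above its own, so its value is uncertain where the genes overlap.

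Nrg1, which encodes neuregulin 1, spans 1069.48 kb at chr8:31814551-32884029 on the minus strand and has 18 annotated transcripts. Its mean was 0.665 in untreated Scd2f/f, 2.21 in Scd2f/f DEN + WAD and 0.504 in Scd2f/f;CC DEN + WAD. It was thus high in treated mice with intact Scd2 and low in both other groups. The ratio of treated to untreated Scd2f/f was 3.32 (log2 1.73), and 3.52% of genes had a ratio at least as high. In Scd2f/f;CC it was 4.38-fold lower than in Scd2f/f (log2 -2.13), and 0.513% of genes had a ratio at least as low. It was the member with the largest fold in both comparisons. With a pseudocount of 0.1 its log2 ratios were 1.59 and -1.94, and with a pseudocount of 1 they were 0.95, under 2-fold, and -1.09. Reads were summed over the gene, so which Nrg1 isoforms they came from was not measured. Gm26578, which overlaps it on the opposite strand, had means of 0.04, 0.077 and 0.0505.

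Among the markers of HSC and fibroblasts, the 3 collagen genes (Col1a1, Col1a2 and Col3a1) were, like Nrg1, highest in Scd2f/f DEN + WAD. So were Lrat, Pdgfrb, Fbln2 and Dcn, while Acta2 and Des were not. Col1a1 had means of 4.69 in untreated Scd2f/f, 19.6 in Scd2f/f DEN + WAD and 4.51 in Scd2f/f;CC DEN + WAD. Acta2, smooth muscle actin of activated HSC, had means of 1.27, 1.2 and 0.388, and Des, desmin, 4.25, 3.29 and 1.98, both highest in untreated mice. The 9 HSC and fibroblast markers summed to 129, 253 and 124, with 3 of 9 at least 2-fold higher in Scd2f/f DEN + WAD than in untreated mice and 5 of 9 at least 2-fold lower in Scd2f/f;CC than in Scd2f/f. The 7 cholangiocyte (bile duct cell) markers summed to 64.7, 60.0 and 25.7, with 1 of 7 at least 2-fold higher in Scd2f/f DEN + WAD and 5 of 7 (Krt7, Krt19, Epcam, Spp1 and Cftr) at least 2-fold lower in Scd2f/f;CC. Of all genes, 9.37% were higher by that much in Scd2f/f DEN + WAD than in untreated mice, and 16.5% of those with a mean under 1. In Scd2f/f;CC against Scd2f/f, 4.07% of all genes were lower by that much, and 9.92% of those with a mean under 1. The 7 lymphocyte markers summed to 1.32, 4.35 and 2.59. No marker of these lists stood at 0 in any group, but neither did any gene of the table, so nothing is read from that. The part of these cell types in the Nrg1 difference was not tested.

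Areg, which encodes amphiregulin, lies at chr5:91139599-91148432 on the plus strand with 6 exons over 8.834 kb. Its mean was 0.0685 in untreated Scd2f/f, 0.213 in Scd2f/f DEN + WAD and 0.0945 in Scd2f/f;CC DEN + WAD. Only 1.87%, 7.85% and 3.34% of genes had a lower mean. The ratio was 3.11 between treated and untreated Scd2f/f (log2 1.64), and it was 2.25-fold lower in Scd2f/f;CC than in Scd2f/f (log2 -1.17). How many reads lie behind such means is unknown. With a pseudocount of 0.1 the treated to untreated ratio was 0.89 on the log2 scale, under 2-fold.

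Areg sits in a run of EGF family ligand genes on chromosome 5. Ereg, which encodes epiregulin, lies at 91074622-91093646 on the plus strand, and its end is 46.0 kb from the start of Areg. Btc lies 209 kb beyond the end of Areg, at 91357261-91402994 on the minus strand. Ereg had means of 0.265, 0.590 and 0.275 in untreated Scd2f/f, Scd2f/f DEN + WAD and Scd2f/f;CC DEN + WAD, with log2 ratios of 1.15 for treated over untreated Scd2f/f and -1.10 for Scd2f/f;CC over Scd2f/f. Btc had means of 3.79, 3.04 and 2.58, with log2 ratios of -0.32 and -0.24. Areg and Ereg thus had their highest mean in Scd2f/f DEN + WAD, and Btc had its highest in untreated mice. Epgn, the remaining gene of the run, was not in the table.

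The start regions of Areg and Btc are shown because these neighbours on chromosome 5 had different orders of the 3 groups. Each runs from 250 bases before to 50 bases after the RefSeq start of the gene (GRCm38.p6), written 5′ to 3′ on the strand of the gene. The Areg region is chr5:91139349-91139648 on the plus strand, with 59.3% G and C. The Btc region is chr5:91402945-91403244 on the minus strand, with 60.3% G and C. Capitals mark the cAMP response element TGACGTCA and the TATA box TATAAA.
Areg: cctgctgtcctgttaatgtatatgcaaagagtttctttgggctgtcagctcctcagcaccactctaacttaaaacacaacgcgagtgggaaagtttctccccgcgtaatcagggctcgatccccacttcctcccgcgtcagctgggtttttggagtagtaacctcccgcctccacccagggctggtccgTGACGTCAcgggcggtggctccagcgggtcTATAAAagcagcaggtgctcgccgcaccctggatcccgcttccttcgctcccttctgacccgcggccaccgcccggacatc
Btc: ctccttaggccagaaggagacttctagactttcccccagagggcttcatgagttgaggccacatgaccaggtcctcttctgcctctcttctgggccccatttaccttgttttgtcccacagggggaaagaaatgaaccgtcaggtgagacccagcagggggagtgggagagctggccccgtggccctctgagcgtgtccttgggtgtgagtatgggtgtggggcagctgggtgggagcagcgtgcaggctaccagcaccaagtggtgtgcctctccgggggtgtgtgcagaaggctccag

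On both strands, 4 motifs were searched in the regions of the 7 members that RefSeq's table holds (Areg, Btc, Egf, Egfr, Erbb2, Erbb4 and Tgfa). They were the cAMP response element TGACGTCA, the TATA box TATAAA, the AP-1 site TGANTCA and the TEAD site GGAATG, which do not overlap in the matches found. The Areg region held the cAMP response element with its first base at -61 and the TATA box with its first base at -31 from the start. Of all 32851 regions of this length, 1.79% held the cAMP response element and 13.6% the TATA box. The Erbb2 region held the TEAD letters with their first base at -88, as did 14.7% of all regions somewhere, and no region of a member held the AP-1 letters, which 7.81% of all regions held. None of the 4 motifs was found in the regions of Btc, Egf, Egfr, Erbb4 and Tgfa. These are matches of letters and no measure of binding.

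Tgfa, at chr6:86195223-86275719 on the plus strand, had means of 12.6 in untreated Scd2f/f, 12.6 in Scd2f/f DEN + WAD and 10.2 in Scd2f/f;CC DEN + WAD. It was equal to the last digit between treated and untreated Scd2f/f, and 1.24-fold lower in Scd2f/f;CC. Tgfa and Btc, which held most of the ligand sum, thus had no ratio past 2-fold in any comparison.

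Egf lies at chr3:129677565-129755316 on the minus strand with 24 exons. Its means had the reverse order of those of Areg, at 0.344 in untreated Scd2f/f, 0.143 in Scd2f/f DEN + WAD and 0.307 in Scd2f/f;CC DEN + WAD. It was 2.41-fold lower in treated than in untreated Scd2f/f (log2 -1.27) and 2.15-fold higher in Scd2f/f;CC than in Scd2f/f (log2 1.10), a ratio that 1.40% of genes reached. All 3 means were low, above those of 16.4%, 4.54% and 13.6% of genes. With a pseudocount of 0.1 the log2 ratios were -0.87 and 0.74, both under 2-fold.

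Hbegf, which encodes heparin-binding EGF, lies at chr18:36504927-36515805 on the minus strand. Its means were 0.186 in untreated Scd2f/f, 0.405 in Scd2f/f DEN + WAD and 0.290 in Scd2f/f;CC DEN + WAD. The ratio of treated to untreated Scd2f/f was 2.18 (log2 1.12), which 7.99% of genes reached, and it was 1.40-fold lower in Scd2f/f;CC than in Scd2f/f (log2 -0.48), within what 12.4% of genes showed. With a pseudocount of 0.1 the first log2 ratio was 0.82. Macrophages are a known source of this ligand. The 8 macrophage markers summed to 102, 400 and 328 over the 3 groups, with 8 of 8 at least 2-fold higher in Scd2f/f DEN + WAD than in untreated mice and 0 of 8 past 2-fold between the DEN + WAD groups. Of all genes, 9.37% were higher by that much in treated than in untreated Scd2f/f. Between the DEN + WAD groups, 1.82% of all genes were higher and 4.07% lower in Scd2f/f;CC. The part of macrophages in the Hbegf difference was not tested.

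Beyond the members, 62 genes of the pathway were in the table, in lists by role. Between treated and untreated Scd2f/f, 6 were at least 2-fold higher (Adam19, Egr1, Ereg, Fos, Ier3 and Rhbdf2) and 1 at least 2-fold lower (Nrg4), with a median log2 ratio of 0.18 against 0.04 over all genes. Of all genes 9.37% were higher and 4.69% lower by that much, so the share of pathway genes that were higher lay near the background. Between Scd2f/f;CC and Scd2f/f in DEN + WAD mice, 1 was at least 2-fold higher (Spry4) and 4 at least 2-fold lower (Ereg, Ier3, Myc and Phlda1), with a median of -0.07 against 0, beside 1.82% and 4.07% of all genes. Between Scd2f/f;CC DEN + WAD and untreated Scd2f/f, 4 were at least 2-fold higher (Adam19, Egr1, Fos and Spry4) and 4 lower (Etv4, Myc, Nrg4 and Phlda1), with a median of 0.06 against 0.05, beside 6.41% and 4.64% of all genes.

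Among the other ligands, 2 of 5 were in the table. Nrg4, a neuregulin made by adipose tissue and other tissues that binds ErbB4, had means of 17.6 in untreated Scd2f/f, 2.66 in Scd2f/f DEN + WAD and 3.13 in Scd2f/f;CC DEN + WAD. It was 6.62-fold lower in treated than in untreated Scd2f/f (log2 -2.73), a larger fold than that of any member, with a log2 ratio of 0.23 between the DEN + WAD groups. Nrg4 thus differed from Nrg1, whose level in Scd2f/f;CC lay near that of untreated mice.

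Of the 9 shedding genes in the table, 2 were at least 2-fold higher in treated than in untreated Scd2f/f and 0 were past 2-fold between the DEN + WAD groups by the ratio of group means, against 9.37% of all genes higher in the first comparison and 16.5% of those with a mean under 1, where Adam19 lay. Rhbdf2, an iRhom that carries ADAM17 to the cell surface, had means of 3.52, 7.61 and 5.11 in untreated Scd2f/f, Scd2f/f DEN + WAD and Scd2f/f;CC DEN + WAD. Adam19, a metalloprotease that can cut neuregulin, had means of 0.462, 1.53 and 1.05. Adam17 itself had means of 13.9, 18.6 and 15.8. Each of these 3 had their highest mean in Scd2f/f DEN + WAD, with Scd2f/f;CC between the others.

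The adaptors and kinases that carry the signal on, such as those of the Ras, ERK and Akt arms, had small ratios. All 23 were in the table and 0 were past 2-fold in any of the 3 comparisons of group means, none of which carries a test. Of all genes, 9.37% were higher and 4.69% lower by that much in treated than in untreated Scd2f/f. Between the DEN + WAD groups 1.82% were higher and 4.07% lower in Scd2f/f;CC. Between Scd2f/f;CC DEN + WAD and untreated Scd2f/f these shares were 6.41% and 4.64%. The log2 ratios of the 23 ran from -0.27 to 0.46 between treated and untreated Scd2f/f and from -0.45 to 0.19 between the DEN + WAD groups.

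The 17 inhibitors of ErbB and ERK signalling, which ERK activity itself induces in part, held 1 gene past 2-fold. That gene, Spry4, was higher in Scd2f/f;CC DEN + WAD than in both other groups. Of all genes, 1.82% were higher by that much against Scd2f/f DEN + WAD and 6.41% against untreated Scd2f/f. Spry4, a Sprouty protein, had means of 2.49 in untreated Scd2f/f, 3.75 in Scd2f/f DEN + WAD and 7.53 in Scd2f/f;CC DEN + WAD, and was 2.01-fold higher in Scd2f/f;CC than in Scd2f/f. Dusp6, the phosphatase that turns off ERK, had the same order at 20.5, 29.8 and 40.4. Errfi1, which binds and blocks EGFR, stood at 439, 431 and 398. The feedback genes therefore did not share an order across the groups.

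The 11 transcripts that ERK activity induces were split. Between treated and untreated Scd2f/f, 3 of 11 were at least 2-fold higher. Of all genes 9.37% were, and of those with a mean under 1, where Ier3 lay, 16.5%. Egr1, an immediate early transcription factor, had means of 5.59 in untreated Scd2f/f, 18.1 in Scd2f/f DEN + WAD and 13.4 in Scd2f/f;CC DEN + WAD, and Fos, another, 0.742, 2.47 and 1.55. Between the DEN + WAD groups, 3 of 11 were at least 2-fold lower in Scd2f/f;CC, with a median log2 ratio of -0.71. Of all genes 4.07% were lower by that much, and of those with a mean under 1, where Ier3 lay, 9.92%. Myc, a growth regulator, had means of 6.84, 6.41 and 2.05, and was 3.13-fold lower in Scd2f/f;CC than in Scd2f/f. Phlda1 had means of 41.4, 42.5 and 19.9 and was 2.14-fold lower. Egr1 and Fos were thus higher in both DEN + WAD groups than in untreated mice, while Myc and Phlda1 had close means in both Scd2f/f groups and lower means in Scd2f/f;CC. The 7 proliferation markers summed to 3.59, 16.8 and 9.52, the same order of groups as Egr1 and Fos, and their part was not tested.

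**Figure D4:**
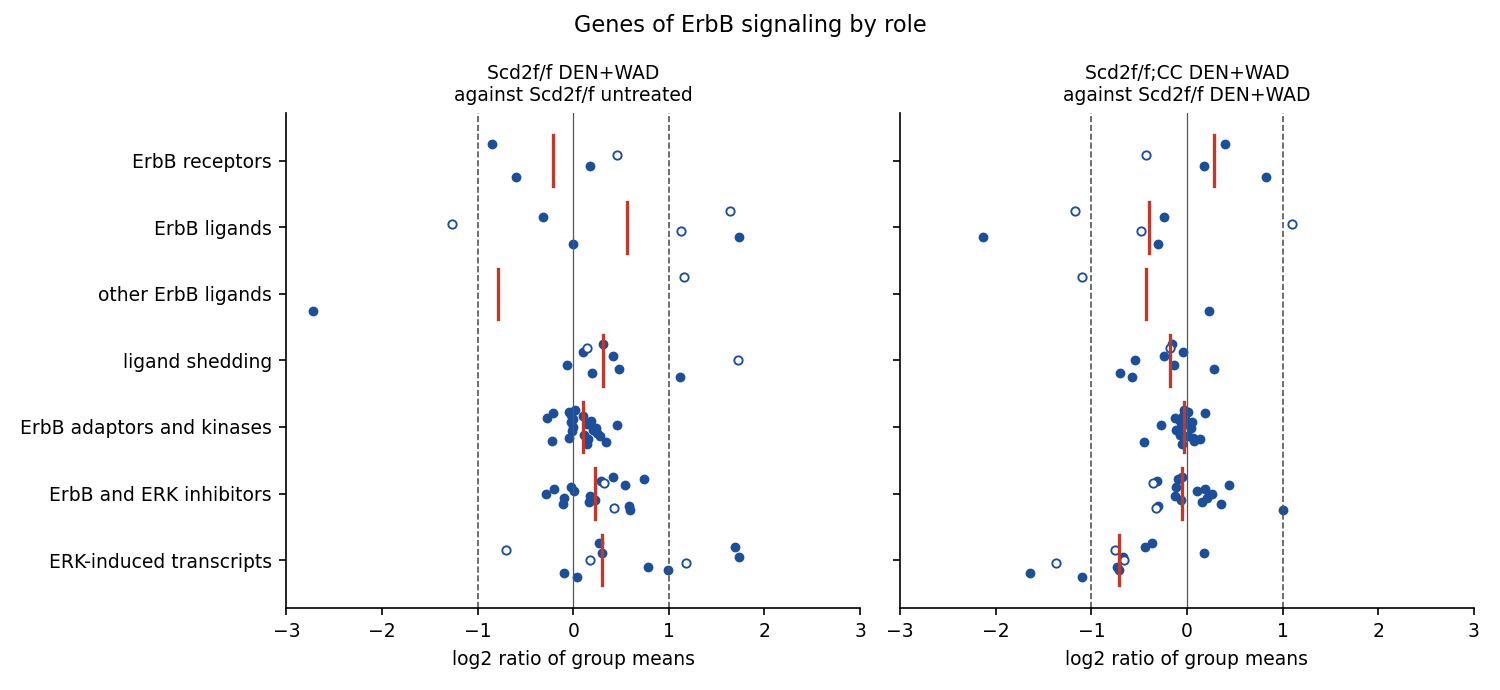
Log2 ratios of group means for the members and the other pathway genes by role, 1 point for each gene, for treated over untreated Scd2f/f and for Scd2f/f;CC over Scd2f/f in DEN + WAD mice. Open points have a mean under 1 over both groups, red lines are list medians and dashed lines mark 2-fold; the 23 adaptors and kinases stay within -0.45 to 0.46, while ligands and ERK-induced transcripts spread past 2-fold.

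The remaining marker lists were set beside the same comparisons. The 7 endothelial markers summed to 110 in untreated Scd2f/f, 147 in Scd2f/f DEN + WAD and 147 in Scd2f/f;CC DEN + WAD, and the 4 neutrophil markers in the table to 1.18, 4.74 and 3.68. At least 2-fold higher in treated than in untreated Scd2f/f were 2 of 7 endothelial, 6 of 7 lymphocyte, 4 of 4 neutrophil and 7 of 7 proliferation markers. Of all genes 9.37% were, and of those with a mean under 1, where every lymphocyte marker lay, 16.5%. At least 2-fold lower in Scd2f/f;CC than in Scd2f/f were 2 of 7 lymphocyte, 1 of 4 neutrophil and 2 of 7 proliferation markers. Of all genes 4.07% were lower by that much, and of those with a mean under 1, where each of these markers lay, 9.92%. Nrg1, Areg and Hbegf were thus high in the group in which the HSC and fibroblast, leukocyte and proliferation sums were highest as well. What these cells contribute was not tested.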

How the data were processed

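RNA of the liver of 9 mice in 3 groups of 3 was made into TruSeq v2 poly(A) libraries and sequenced on an Illumina NextSeq instrument. Per the submitters' processing notes, reads were aligned to mm10 with STAR 2.6.1 and analysed in Partek 6. The study's methods give quantification against Gencode M3 by an expectation-maximization step, upper quartile normalization and Partek GSA. Whether counting used strand, or a filter removed low genes, is not given in the sources used here. The values used are signal, that is group means of normalized read counts, which the authors deposited without single-mouse values. The p-values, FDR values, ratios and fold changes of their own comparisons (8 columns) were not used.

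Ratios of group means were computed in Python with NumPy and pandas, with a 2-fold threshold, no pseudocount and no filter, and figures with Matplotlib. The 2-fold calls were run on simulated group means with larger known changes and the same small noise at every level. That run therefore says nothing of calls at low means. Levels per kb used the union of exons in GENCODE M21 on GRCm38, which matched 16130 genes by symbol. Of those, 99.98% overlapped the coordinates in the table, whose start equalled the annotated one in 92.1%. Because each group is a mean, no replicate comparison, interval or test was made, and depth is unknown.

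The members and gene lists were chosen with earlier results of these data known. Besides the members, genes were named by list where the fold was at least 2 and the mean over both groups at least 1, up to 4 in each list and comparison. Adam17, Dusp6, Errfi1, the marker genes and genes with a mean under 1 were named after their values were seen. Alternatives were another fold threshold, a pseudocount, a filter on low means and centring on the median gene.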

Additional observations from a re-analysis of the deposited data

How the results depend on the processing

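Without single-mouse values, leaving out each mouse was not run, and no library was weighed by its depth. No paired analysis was possible because the columns hold group means and carry no replicate numbers. How many reads lie behind means under 1 is unknown, for Areg, Hbegf, Egf and Erbb2 in every group and for Nrg1 in untreated Scd2f/f and Scd2f/f;CC.

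Between treated and untreated Scd2f/f, 4 members were past 2-fold. With a 3-fold threshold 2 were (Areg and Nrg1), with a pseudocount of 0.1 or a mean of at least 1 only Nrg1 was, 1 gene in each case, and with a pseudocount of 1 or a mean of at least 10 there were 0. Between the DEN + WAD groups 3 were past 2-fold. That count was 1, Nrg1, with a 3-fold threshold, with a pseudocount of 0.1 or 1 and with a mean of at least 1, and 0 with a mean of at least 10. Nrg1 has a mean of at least 1 only through Scd2f/f DEN + WAD, so passing that filter supports nothing. With a 1.5-fold threshold 6 members were past it between treated and untreated Scd2f/f, with Egfr and Erbb4 added, both lower. Between the DEN + WAD groups 4 were past 1.5-fold, with Erbb4 added, higher in Scd2f/f;CC. Between Scd2f/f;CC DEN + WAD and untreated Scd2f/f the count was 0, and 1 (Hbegf) at 1.5-fold. Centring on the median gene left the counts at 4, 3 and 0. Under centring the members' log2 ratios kept their sign except those of Tgfa in the first comparison and Erbb2 in the third. A pseudocount added to both means cannot change the sign of a ratio, so nothing is read from signs under pseudocounts.

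In the other pathway genes, with alternatives chosen after seeing the data, the counts were 7, 5 and 8 in the same order of comparisons. With a mean of at least 1 the first became 4 and the second 3, and with a pseudocount of 1 the counts were 2, 2 and 5.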
